A study of Zea mays with 47 samples.

Results

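Leaf transcriptomes of Flint and Dent maize inbred lines were compared under control temperature. The comparison used all libraries from plants grown at 25°C by day, 16 of the 47 libraries of the series. A total of 8 libraries came from the Flint lines L012, L017, L023 and L043, and 8 came from the Dent lines P040, S058, S067 and S070. Each library held RNA of the latest fully developed leaf of 5 seedlings, and each line had 2 such libraries, called replications. The plants were grown in a growth chamber and had not been exposed to heat. As the labels call the libraries of a line replications and each came from other plants, the spread between them covers plants and library preparation together. The study itself examined heat tolerance with further plants of the same lines at 32°C and 38°C, which are used here to check the line of each library at 25°C and to see whether a difference between the pools recurred in other plants.

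Flint and Dent are the main heterotic pools of temperate European maize. Flint material goes back to European landraces and is known for hard kernels and early vigour in cool springs, whereas Dent material goes back to the North American Corn Belt and is known for high yield. Breeders keep the pools apart and cross lines between them, since hybrids between divergent pools show strong heterosis. A mature maize leaf is a C4 leaf, in which mesophyll cells fix carbon with PEP carboxylase and bundle sheath cells refix it with Rubisco.

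The lines of a pool are its independent units, as the 2 replications of a line share a genotype. Counts of both replications were therefore summed for each line, and 4 Flint lines were tested against 4 Dent lines. Differences are given as log2 of Flint over Dent, with a negative value where expression was higher in Dent. Levels are CPM, the counts per 1e+06 of the library size after TMM scaling, which adjusts for libraries in which a few genes take many reads. Means over lines are given ± SD with n = 4 lines in each pool. A p adjusted after Benjamini and Hochberg (FDR) below 0.05 in the edgeR quasi-likelihood test over 9539 genes was called a difference.

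Total counts ranged from 7747441 to 19569231 in the Flint libraries and from 12576481 to 20642205 in the Dent libraries. A set of 7 gene models took 70.7% to 85.9% of the counts of a library, with a median of 76.4% in Flint and 80.9% in Dent libraries. Of these, GRMZM5G844143 is described as the photosystem Q(B) protein, the D1 protein of photosystem II, GRMZM2G040858 and GRMZM2G427369 as ycf72, and GRMZM2G427404 as ribosomal protein L2 of the chloroplast. These are plastid genes with copies in the nuclear genome, so that their reads cannot be assigned with certainty, and none of the 7 differed between the pools. The other genes shared the remaining reads.

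The samples carried several markers of a mature C4 leaf in both pools. PEP carboxylase (pep1) had 988 ± 153 CPM in Flint and 1015 ± 92.1 CPM in Dent. Pyruvate phosphate dikinase (pdk1), which regenerates the acceptor in the mesophyll, had 1339 ± 131 and 1336 ± 221 CPM. The bundle sheath enzyme NADP-malic enzyme (me3) had 371 ± 118 and 323 ± 62.9 CPM. The gene rbcs1 (GRMZM2G098520) of the Rubisco small subunit was far lower, with 34.5 ± 18.6 and 25.2 ± 8.98 CPM. Its libraries ranged from 11.3 to 99.7 CPM in Flint and from 4.63 to 48.7 CPM in Dent. In every line replication 1 was higher than replication 2, with 99.7 and 14.7 CPM in L012 and 17.8 and 4.63 CPM in S067. None of the 15 genes of the C4 cycle and Rubisco passed the test, and none did so at an unadjusted p below 0.05.

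A pair of libraries departed in part from their labels. Transcripts of 112 genes that were found in L017 and not in P040 at 38°C summed to 1084 CPM in replication 1 of L017 and to 20.2 CPM in replication 2 of P040, as the labels require. They summed to 567 CPM in replication 2 of L017 and to 569 CPM in replication 1 of P040. Transcripts of 64 genes with the opposite pattern summed to 521 CPM in replication 2 of P040 and to 8.15 CPM in replication 1 of L017, but to 251 CPM in replication 1 of P040 and 139 CPM in replication 2 of L017. Over all genes, the profile of P040 replication 1 correlated at r = 0.333 with the profile of L017 at 38°C and at r = 0.295 with that of its own line. L017 replication 2 correlated most with its own line, at r = 0.392, and at r = 0.251 with P040. As the sets were chosen from L017 and P040 alone, libraries of other lines could hold both, such as S058 replication 2 with 518 and 552 CPM. Compared with the other library of their line, those labelled P040 replication 1 and L017 replication 2 thus held transcripts of both sets. They are called the mixed libraries here, 1 library being Flint and 1 Dent. The counts of called genes and the called genes themselves are therefore given with and without both libraries. These sums are per 1e+06 counts outside the most abundant gene models, and the correlations are across genes, which are not independent replicates.

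**Figure D1:**
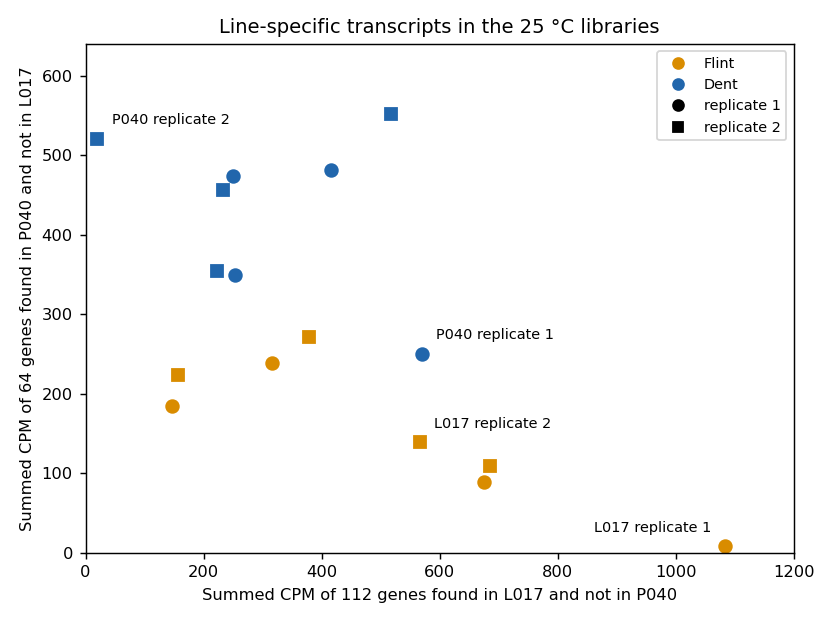
Summed CPM of the genes found in L017 and not in P040 (x axis) and of the genes found in P040 and not in L017 (y axis) in each of the 16 libraries, with color for the pool and shape for the replication. P040 replication 1 lay at 569 and 251 CPM and L017 replication 2 at 567 and 139 CPM, between the other libraries of both lines at 1084 and 8.15 CPM and at 20.2 and 521 CPM.

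The pools separated along the main axis of variation. The first principal component (PC1) explained 26.2% of the variance of the 16 libraries. Line means were 26.1 ± 12.5 in Flint and -26.1 ± 24.7 in Dent, and did not overlap (two-sided exact permutation test over 4 against 4 lines, p = 0.0286, the smallest p that this design allows). The Flint line nearest to Dent was L043 with 8.82, and the Dent line nearest to Flint was P040 with 5.47. Without the 2 mixed libraries, PC1 explained 28.1%, the difference was 56.9 and the exact p was again 0.0286, with P040 at -4.70. PC2, PC3 and PC4 did not separate the pools (exact permutation p = 0.714, 0.314 and 1).

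**Figure D2:**
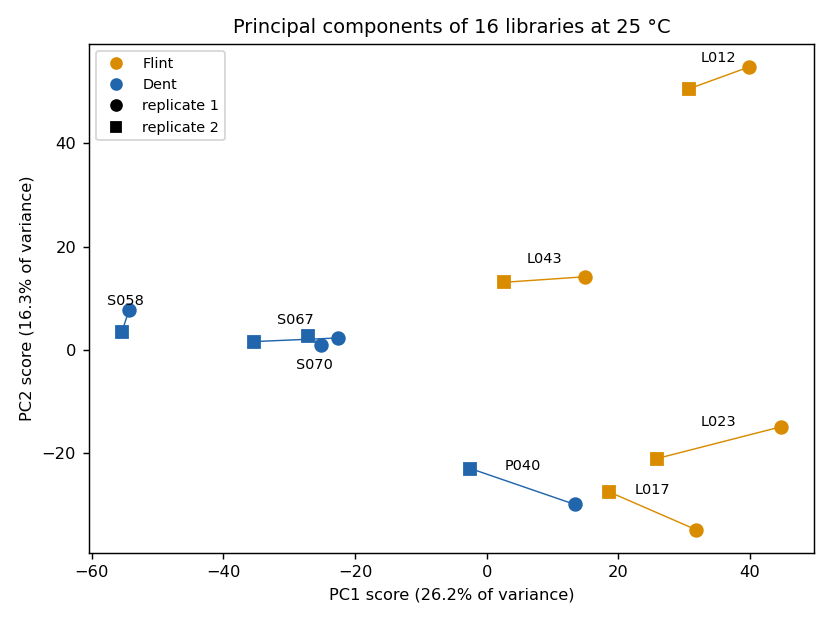
Scores of the 16 libraries on PC1 (x axis) and PC2 (y axis), computed from log2 CPM of 9539 genes, with color for the pool, shape for the replication and a line joining the replications of an inbred line. Flint line means lay between 8.82 and 35.3 on PC1 and Dent line means between -54.9 and 5.47.

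The lines also differed within the pools. A test of all 8 lines against the spread between replications found 3324 genes (34.8%) that differed between lines. With the replicate number as a block it found 4722. For the median gene, 14.6% of the sum of squares between lines lay between the pools, with quartiles of 3.84% and 33.7%. Any split of 8 lines into 2 equal groups leaves, on average, most of this sum within the groups. The share was not compared with that of other splits, so it does not show how strong the pool difference was. The biological coefficient of variation was 0.217 between replications of a line, from single libraries. It was 0.357 between Flint lines and 0.361 between Dent lines, from counts summed per line, so that the units differ. The root mean square log2 difference of a pair of lines had a median of 0.812 within Flint (6 pairs), 0.825 within Dent (6 pairs) and 0.957 between the pools (16 pairs). Without the mixed libraries these medians were 0.902, 0.855 and 1.01, and the ranges of the 3 kinds of pairs overlapped in both settings. Single lines stood out as well. In S058, 41 genes were above every other line by more than 2 on the log2 scale, and in L012, 41 genes were below every other line by more than 2. These 8 lines are a small sample of the pools.

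A total of 12 genes (0.126% of those tested) differed between Flint and Dent at 25°C. Of these, 10 (0.105%) were higher in Dent, 2 (0.021%) were higher in Flint, and 3 differed by more than 2 on the log2 scale. In each of the 12 genes, all 4 lines of one pool lay beyond all 4 lines of the other, and in 10 of them the 8 libraries of each pool did so too. In RNA of whole leaf pieces, fewer cells of a type and less RNA per cell cannot be told apart. A total of 1286 genes (13.5%) had an unadjusted p below 0.05, 598 of them with a higher level in Flint and 688 in Dent. Without the 2 mixed libraries the test called 39 genes (0.409%), of which 20 were higher in Flint, 19 were higher in Dent and 11 were among the 12. Leaving out the 1 undoubted library of L017 or of P040, so that the line rested on its mixed library alone, left 0 called genes with 1204 and 1202 genes at an unadjusted p below 0.05. It called 7 genes without L043 replication 2 and 29 without P040 replication 1. When a whole line was left out, it called 57 genes without P040, 17 without L017, 8 without L043, 4 without L012, 3 without S067, 1 each without S058 and S070, and 0 without L023 (1077 genes at an unadjusted p below 0.05). The DESeq2 Wald test on the same line sums called 307 genes, which included all 12, and limma-voom called 7, all of them among the 12.

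**Figure D3:**
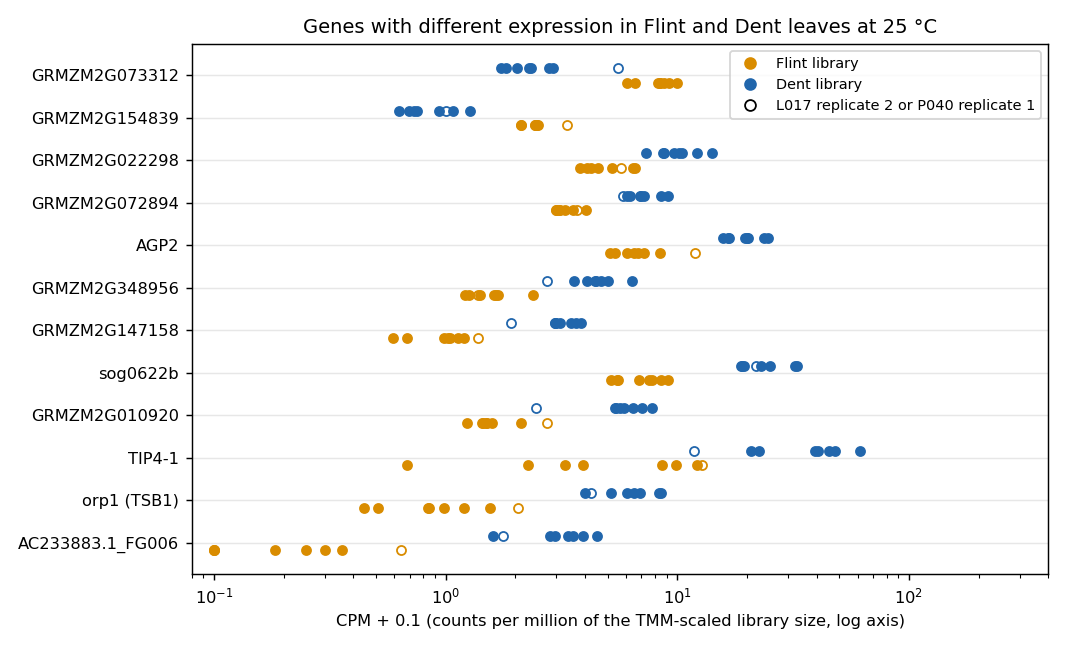
CPM plus 0.1 (x axis, log scale) of the 12 genes called different in each of the 16 libraries, with 1 point per library, colored by pool, and open points for P040 replication 1 and L017 replication 2. The Flint and Dent libraries overlapped in TIP4-1 and GRMZM2G010920 and did not overlap in the other 10 genes.

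Expression of orp1 (GRMZM2G169593, synonym TSB1), which encodes a tryptophan synthase beta subunit that joins indole and serine in the final step of tryptophan synthesis, was higher in all 4 Dent lines. Its level was 1.13 CPM in L012, 1.43 in L017, 0.555 in L023 and 0.731 in L043, against 4.02 in P040, 7.47 in S058, 5.61 in S067 and 7.61 CPM in S070. The 8 Flint libraries ranged from 0.346 to 1.96 CPM with a median of 0.815, and the 8 Dent libraries ranged from 3.91 to 8.37 CPM with a median of 6.19. No Flint library reached a Dent library. The difference was -2.70 ± 0.33 (SE), that is 6.49-fold higher in Dent (edgeR adjusted p = 0.0275). Without the mixed libraries it was -2.98 (adjusted p = 0.0091). When each line was left out in turn, the difference stayed between -2.97 and -2.51 and 2 of 8 tests remained below the threshold.

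The largest difference of an aquaporin, and the smallest p of the comparison, was found for TIP4-1 (GRMZM2G103945), a tonoplast intrinsic protein that lets water and small solutes pass the vacuolar membrane. The line levels were 6.53, 7.33, 6.99 and 7.18 CPM in L012, L017, L023 and L043, and 32.8, 38.4, 29.4 and 49.9 CPM in P040, S058, S067 and S070. The Dent lines were thus above the Flint lines by 5.36-fold (log2 -2.42 ± 0.20, edgeR adjusted p = 0.00613). The agreement between the Flint line sums was closer than that between their replications. In each of the 8 lines, replication 1 was lower than replication 2, with 0.579 and 12.7 CPM in L017, 2.18 and 12.1 CPM in L043, and 11.7 and 44.9 CPM in P040. The Flint libraries (0.579 to 12.7 CPM, median 6.14) and the Dent libraries (11.7 to 61.5 CPM, median 39.8) overlapped only through the mixed libraries, P040 replication 1 with 11.7 CPM and L017 replication 2 with 12.7 CPM. Of the others, the lowest Dent library had 20.61 CPM and the highest Flint library 12.1 CPM. The test of the 8 lines against their replications gave an edgeR adjusted p of 0.0504, and 4.49e-05 with the replicate number as a block. Without the mixed libraries the difference was -2.92 and was not called (edgeR adjusted p = 0.0931).

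The other 2 genes with a name in the annotation were likewise higher in Dent. The gene listed as AGP2 (GRMZM2G027955) had line levels of 6.53, 9.02, 7.69 and 6.13 CPM in L012, L017, L023 and L043. In P040, S058, S067 and S070 it had 18.8, 24.5, 20.03 and 16.2 CPM. Libraries ranged from 5.04 to 11.9 CPM (median 6.54) in Flint and from 15.6 to 24.5 CPM (median 19.7) in Dent and did not overlap, and the highest Flint library was the mixed L017 replication 2. The difference was -1.44 ± 0.19 (edgeR adjusted p = 0.034), and -1.65 without the mixed libraries (adjusted p = 0.00962). The gene listed as sog0622b (GRMZM2G014695) had 7.0 ± 1.58 CPM in Flint and 24.1 ± 3.37 CPM in Dent lines. Its Flint libraries ranged from 5.05 to 9.05 CPM (median 7.09) and its Dent libraries from 18.6 to 32.8 CPM (median 22.4), without overlap. The difference was -1.78 ± 0.20 (edgeR adjusted p = 0.0211), and -1.77 without the mixed libraries.

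The 8 remaining genes had no name or description in the annotation, and 6 of them were higher in Dent. AC233883.1_FG006 differed most, with 0 to 0.54 CPM in the Flint libraries (median 0.116) against 1.495 to 4.40 CPM in the Dent libraries (median 3.07). In Flint it rested on 0 to 8 counts in a library, and the difference of -4.003 ± 0.56 (edgeR adjusted p = 0.0445) has that limit. Both libraries of L012 held 0 counts of it. GRMZM2G010920 had 1.62 ± 0.394 CPM in Flint and 5.91 ± 0.476 CPM in Dent lines, a difference of -1.86 ± 0.19. Its only Dent library inside the Flint range of 1.14 to 2.63 CPM was the mixed P040 replication 1 with 2.34 CPM, whereas P040 replication 2 had 7.65 CPM. GRMZM2G147158 (-1.71), GRMZM2G348956 (-1.56), GRMZM2G072894 (-1.12) and GRMZM2G022298 (-1.03) showed no overlap between the libraries of the pools. Without the mixed libraries these 6 differences were -4.52, -2.13, -1.89, -1.61, -1.19 and -1.07 in the order given, and all were called (edgeR adjusted p from 0.0091 to 0.0182).

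The 2 genes higher in Flint were GRMZM2G073312 and GRMZM2G154839. GRMZM2G073312 had 9.23, 8.75, 7.73 and 7.26 CPM in L012, L017, L023 and L043, and 3.71, 1.88, 2.52 and 1.89 CPM in P040, S058, S067 and S070, a 3.28-fold difference (log2 1.72 ± 0.24, edgeR adjusted p = 0.0424). Its highest Dent library was the mixed P040 replication 1 with 5.44 CPM, below the lowest Flint library with 5.97 CPM. GRMZM2G154839 had 2.43 ± 0.319 CPM in Flint and 0.78 ± 0.124 CPM in Dent lines (log2 1.63 ± 0.21, edgeR adjusted p = 0.034). Both calls remained without the mixed libraries (adjusted p = 0.0091 and 0.0232). Every one of the 12 calls was lost in at least 1 of the 16 fits that left out a single library, and the log2 differences kept their sign in all of them.

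Removal of the mixed libraries brought further Flint genes into view. MYB59 (GRMZM2G093789), a gene of the R2R3-MYB family of transcription factors, had 1.69, 1.54, 2.40 and 2.09 CPM in L012, L017, L023 and L043. In S058, S067 and S070 it had 0.0896, 0.12 and 0.157 CPM, and in P040 0.419 CPM. Of the Dent libraries, the mixed P040 replication 1 was the highest with 0.907 CPM (12 counts), whereas P040 replication 2 had 0.132 CPM (3 counts). The difference of 3.26 ± 0.54 was not called with all libraries (edgeR adjusted p = 0.0993) and was 3.95 without the mixed ones (adjusted p = 0.0091). A pair of unnamed genes, GRMZM2G562569 and GRMZM2G580456, had at least 2 CPM in every Flint line and below 0.5 CPM in every Dent line once both libraries were left out. GRMZM2G562569 had 28 to 114 counts in the 7 Flint libraries other than L017 replication 2, which had 0 counts, and 0 counts in the 7 Dent libraries other than P040 replication 1, which had 16. GRMZM2G580456 had the same pattern, with 18 to 107 counts, 0 counts in L017 replication 2 and 16 counts in P040 replication 1. L017 replication 1 had 29 and 26 counts of these genes, so that L017 replication 2 lacked transcripts of its own line here, in contrast to its sum over the 112 genes. No gene met these limits in either direction with all libraries.

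In a wider set of genes the lines of the pools did not overlap, most of them without passing the test. The 12 called genes are part of this set. With no difference between pools, a gene is separated in this way with a probability of 0.0286 under random labels of the lines. Some of these genes would thus be separated without a pool difference. In 749 genes (7.85%), all Flint lines lay on one side of all Dent lines, with 375 genes (3.93%) higher in Flint and 374 (3.92%) higher in Dent. Beyond a log2 difference of 1, 112 of them had Flint higher and 101 had Dent higher. Separation of all 8 against all 8 libraries was found in 75 genes (0.786%), 36 with Flint higher and 39 with Dent higher. Without the mixed libraries 862 genes (9.04%) were separated by lines. Of the other genes, 548 had 6 of the 8 lines outside the range of the other pool and 175 had none.

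Among the gene groups examined, cytosolic ribosomal proteins had the most members with an unadjusted p below 0.05. Of 23 such genes tested, 20 had a higher level in Dent and 11 of these had an unadjusted p below 0.05, while 0 passed the adjusted threshold and 4 were separated by lines. Over all genes, 13.5% had an unadjusted p below 0.05 and 7.85% were separated by lines. The median log2 difference was -0.47, against 0.0015 for all genes. The ribosomal protein gene rpl39 (GRMZM2G100467) had the largest difference, with 0.616 ± 0.192 CPM in Flint and 3.09 ± 1.63 CPM in Dent (log2 -2.31, adjusted p = 0.164). The summed level of the group was 88.9 to 100.03 CPM in the Flint lines, and 163, 131 and 146 CPM in S058, S067 and S070. P040 had 95.7 CPM, within the Flint range, in a sum that includes its mixed library. The difference thus held in 3 of the 4 Dent lines. Without the mixed libraries the group median was -0.50. At 38°C the median was 0.05.

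Genes of pathogen defence had the lowest median of all groups with at least 5 members tested. Of 11 pathogenesis-related and resistance genes, 9 had a higher level in Dent, with a median of -1.08, 0 genes below the adjusted threshold and 3 with an unadjusted p below 0.05 (13.5% over all genes). This rested mainly on S058. The thaumatin-like protein PR-5 (GRMZM2G402631) had 73.5 CPM in S058, 16.3 in S067, 13.6 in S070 and 0.95 in P040, against 0.225 to 4.79 CPM in the Flint lines (log2 -3.69 ± 1.30, adjusted p = 0.28). The summed level of the group was 257 CPM in S058, 62.9 in S067, 43.8 in S070 and 27.5 in P040, and 19.8 to 50.3 CPM in Flint. The Flint and Dent ranges of the sum thus overlapped, and at 38°C the median was 0.50. Similarly, all 5 tested genes of phenylpropanoid and lignin synthesis had a higher mean in Dent, with a median of -0.80, and S058 had the highest summed level (46.4 CPM against 9.88 to 27.9 CPM in the other 7 lines). The 4CL gene (GRMZM2G075333), whose enzyme activates cinnamic acids, had 2.37 ± 1.23 and 5.87 ± 3.42 CPM (adjusted p = 0.305).

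Genes for glutathione S-transferases, which conjugate glutathione to electrophiles, had negative differences in 11 of 12 cases, with a median of -0.54 at 25°C and -0.52 at 38°C. The exception, gst19 (GRMZM2G335618), was the only member separated by lines, 1 of 12, close to the 7.85% of all genes. It had 4.66 ± 0.866 CPM in Flint and 2.11 ± 1.11 CPM in Dent (log2 1.14, adjusted p = 0.246). Their summed level overlapped between the pools, with 33.0 to 56.9 CPM in Flint and 43.7 to 82.8 CPM in Dent. Of 20 genes of chromatin and epigenetic control, 15 had a higher level in Dent, with a median of -0.21. Of the 20, 2 were separated by lines with Dent higher and 1 with Flint higher (7.85% over all genes). Among them, the RNA-dependent RNA polymerase gene rdr6 (GRMZM2G145201), which acts in RNA silencing, had 2.38 ± 0.492 and 3.94 ± 0.837 CPM (log2 -0.72, adjusted p = 0.221).

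Aquaporins other than TIP4-1 mostly had the opposite sign. Of 15 genes tested, 12 had a higher level in Flint and the median was 0.37, while TIP4-1 and PIP2-6 (GRMZM2G047368, log2 -2.11, adjusted p = 0.315) had the only differences below -0.1. The plasma membrane aquaporin PIP2-1 (GRMZM2G014914) had 20.5 ± 4.31 CPM in Flint and 13.3 ± 3.65 CPM in Dent (log2 0.63, adjusted p = 0.333), and TIP4-2 (GRMZM2G108273), the relative of TIP4-1, had 1.64 ± 0.885 and 1.08 ± 0.307 CPM (log2 0.60, adjusted p = 0.534). None of these reached the threshold.

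Genes of primary metabolism had small positive medians. Of 11 nitrogen assimilation genes, 9 had a higher level in Flint, with a median of 0.37 and 2 separated by lines (7.85% over all genes). The plastid glutamine synthetase (GRMZM2G098290) had 10.4 ± 1.28 and 7.3 ± 1.05 CPM (log2 0.51, adjusted p = 0.246), and the cytosolic glutamine synthetase Gln1-3 (GRMZM5G872068) had 12.97 ± 0.539 and 10.04 ± 1.41 CPM (log2 0.37, adjusted p = 0.327). Starch and sucrose genes had a higher level in Flint in 13 of 15 cases with a median of 0.31, and antioxidant enzymes in 10 of 12 cases with a median of 0.25. No gene of these groups was called by edgeR. An unadjusted p below 0.05 was found for 1 of 15 starch and sucrose genes and 2 of 12 antioxidant genes (13.5% over all genes). The summed level of the antioxidant enzymes did not overlap, with 120 to 135 CPM in the Flint lines and 87.6 to 112 CPM in the Dent lines. The same held for the jasmonate and lipoxygenase genes (652 to 854 against 552 to 624 CPM), where most of the sum came from lox10, described below. It also held for the 2 cuticular wax genes (6.03 to 8.95 against 2.06 to 5.87 CPM), whereas the sums of the other groups overlapped. No single antioxidant or wax gene was separated by lines, so that the separation was one of the sums and not of their members. Of 13 light harvesting and photosystem genes, 10 had a higher level in Flint, with a median of 0.22, and the summed level was highest in L012 and L017 (1446 and 1206 CPM against 655 to 951 CPM in the other 6 lines). The light harvesting gene cab-m1 (GRMZM2G351977) had 279.4 and 226 CPM in these lines, 52.0 and 92.0 CPM in L023 and L043, and 37.1 to 82.4 CPM in the Dent lines (log2 1.58 ± 0.52, adjusted p = 0.26). Medians of the nitrogen, starch and light harvesting groups were 0.05, -0.0002 and -0.45 at 38°C.

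Regulatory genes were separated by pool about as often as the 7.85% of all genes, in 3 of 49 transcription factor genes, 2 of 27 auxin and cytokinin genes and 1 of 8 clock genes. Both maize homologs of GIGANTEA, a clock-controlled regulator of flowering, had higher means in Flint. The homolog gigz1b (GRMZM5G844173) was separated by lines, with 17.5 to 31.8 CPM in Flint and 7.71 to 15.1 CPM in Dent (log2 1.05 ± 0.27, adjusted p = 0.191), and the other, gigz1a (GRMZM2G107101), had 57.0 ± 13.9 and 40.2 ± 6.32 CPM (adjusted p = 0.362). The phytochrome gene PhyB1 (GRMZM2G124532), a light receptor, had 7.66 ± 0.594 and 6.70 ± 0.253 CPM (adjusted p = 0.519). The cytokinin receptor gene HK1b2 (GRMZM5G833140) was separated in the direction of Dent, with 4.24 to 5.85 CPM in Flint and 6.18 to 12.98 CPM in Dent (log2 -0.94, adjusted p = 0.21). Besides MYB59, the separated transcription factor genes included MYBR32 (GRMZM2G088524) with 5.96 ± 0.485 and 2.06 ± 1.18 CPM (log2 1.53 ± 0.36, adjusted p = 0.169). Of 12 jasmonate and lipoxygenase genes, 1 was separated by lines. This was lox10 (GRMZM2G015419), a lipoxygenase gene of green leaf volatile synthesis, with 672 ± 101 CPM in Flint and 526 ± 10.4 CPM in Dent (log2 0.35, adjusted p = 0.417).

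Some groups were close to the median of all genes. Of 11 heat shock protein and heat shock factor genes, 7 had a higher level in Flint and the median was 0.003 before any heat exposure. HSP90-2 (GRMZM2G012631), a chaperone, had 45.7 ± 5.63 CPM in Flint and 54.9 ± 11.6 CPM in Dent (log2 -0.26 ± 0.19, adjusted p = 0.574). The 8 benzoxazinoid genes, which make the hydroxamic acids that defend maize seedlings, were split into 4 and 4, with a median of 0.01. The 12 carotenoid genes had a median of -0.06. The 2 gibberellin and brassinosteroid genes had a median of -0.07. Other groups with few tested genes had medians further from that of all genes. These were -1.70 for 3 terpene synthases, 1.15 for 2 cuticular wax genes and 0.31 for 5 anthocyanin and flavonoid genes. The median was 0.22 for 5 cold and dehydration genes and for 6 cytochrome P450 genes. Of the genes of these groups, edgeR called 0, and 1 P450 gene had an unadjusted p below 0.05. The reference gene Actin1 (GRMZM2G126010) had 6.34 ± 1.44 and 6.74 ± 1.6 CPM (log2 -0.09 ± 0.22, adjusted p = 0.888).

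**Figure D4:**
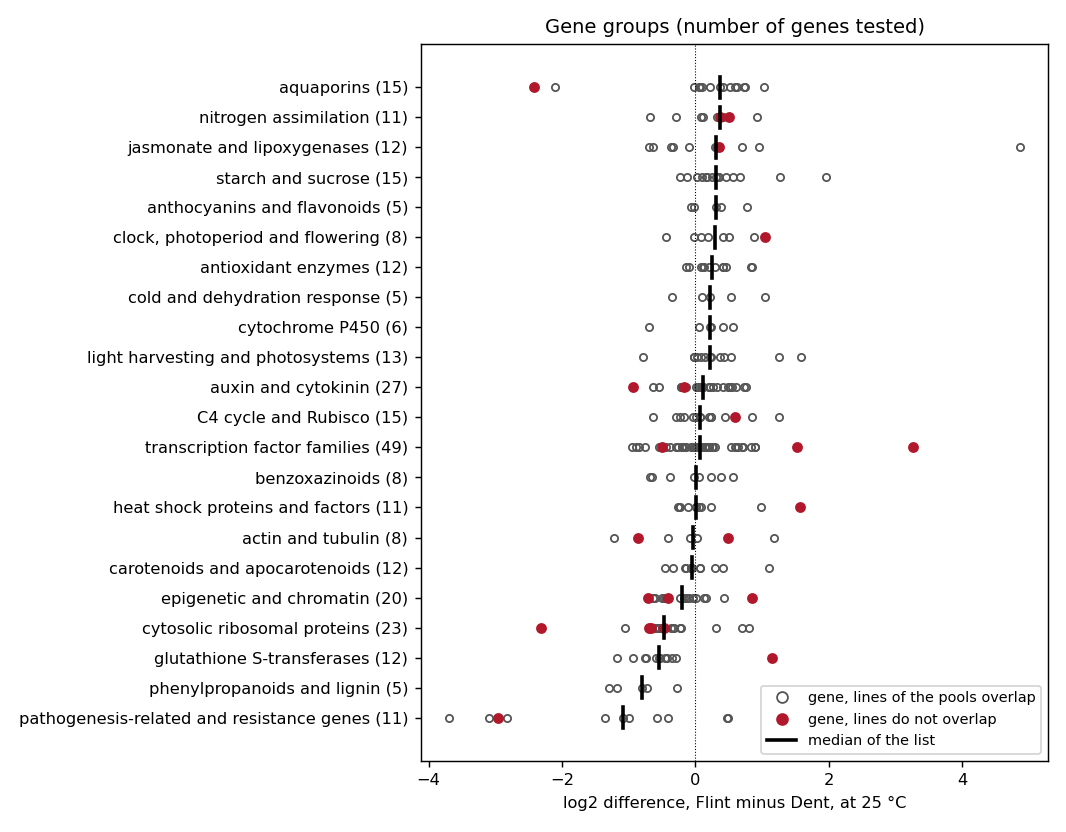
Log2 difference, Flint minus Dent, at 25°C (x axis) of each tested member of the gene groups with at least 5 tested members, ordered by the group median (black bar), with filled points for genes whose 4 Flint and 4 Dent lines did not overlap. Medians ranged from -1.08 for pathogenesis-related and resistance genes to 0.37 for aquaporins, and TIP4-1 was the only member of any group below the adjusted threshold.

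The difference between the pools at 25°C was then followed in the plants of the other heat levels. All 12 genes had the same sign at 32°C and at 38°C. At 38°C, 7 of the 12 passed the test, against 76 of all 9539 genes (0.797%), and 10 of the 12 were separated by lines, against 9.46% of all genes. The difference in orp1 was -2.70 ± 0.33 at 25°C, -2.64 ± 0.34 at 32°C and -2.39 ± 0.21 at 38°C (edgeR adjusted p = 0.00484 at 38°C), and its levels at 38°C were 5.55 ± 1.2 CPM in Flint and 29.3 ± 5.34 CPM in Dent. GRMZM2G073312 had differences of 1.72, 1.86 and 1.85. The smallest value at 38°C relative to 25°C was that of GRMZM2G010920, with -1.86 at 25°C and -0.54 at 38°C (adjusted p = 0.252). At 32°C, 9 of the 12 passed, against 121 of all genes (1.27%), and 11 were separated by lines, against 9.37% of all genes. There, the libraries labelled S070 replication 1 and P040 replication 1 resembled the profile of each other's line (r = 0.659 and 0.537, with -0.02 and -0.11 for their own), both being Dent. Without these libraries, 5 of the 12 and 26 of all genes passed at 32°C. As the same lines were measured at each heat level, these comparisons are repeats in other plants, not in other genotypes.

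**Figure D5:**
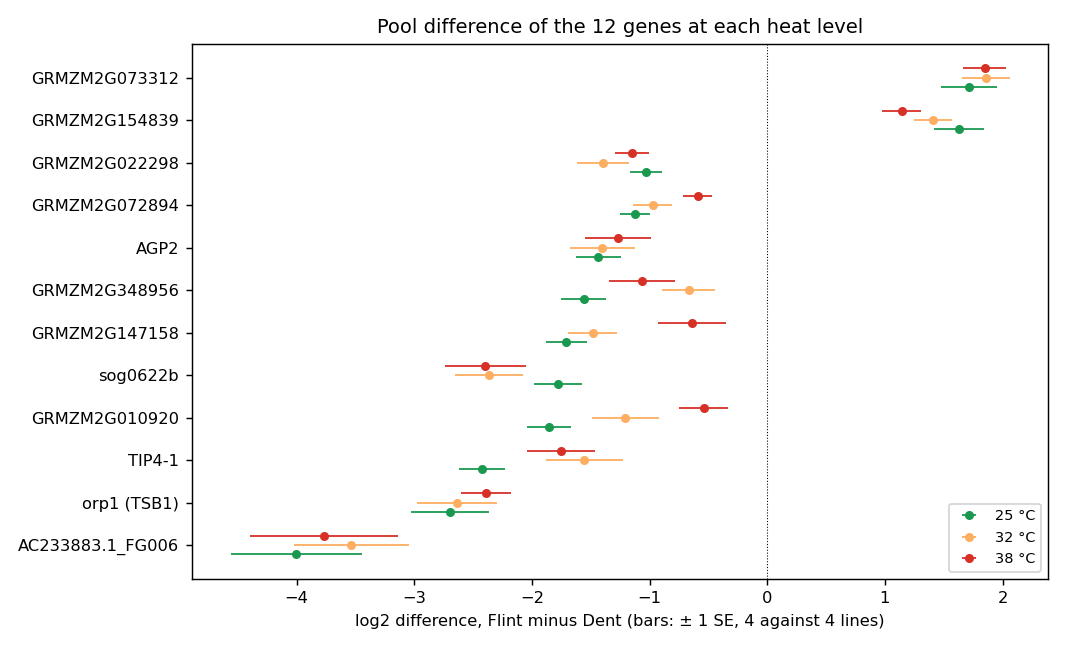
Log2 difference, Flint minus Dent (x axis), of the 12 genes called at 25°C, fitted separately at 25°C, 32°C and 38°C, with bars of ± 1 SE over 4 against 4 lines. Each gene kept its sign at the 3 heat levels, and orp1 ranged from -2.70 to -2.39.

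Of the 749 genes separated by lines at 25°C, 236 were separated in the same direction at 38°C, 1 was separated in the opposite direction and 512 overlapped. At all 3 heat levels, 64 genes were separated with Flint higher and 56 with Dent higher. A test of the interaction of pool and heat level, with line as a block, called 0 genes between 25°C and 38°C with edgeR, with 930 genes at an unadjusted p below 0.05 and a smallest adjusted p of 0.208, and 55 genes with the DESeq2 Wald test. Without the mixed libraries edgeR again called 0 genes, and without L023 it called 1. The change of a gene group's median between 25°C and 38°C was not tested.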

How the data were processed

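Per the study's methods, total RNA depleted of ribosomal RNA was sequenced, reads were aligned with TopHat2 (version 2.0.3) to the B73 RefGen v3 genome, and the authors deposited whole-number read counts per gene without normalization. The GEO labels give line, heat level and replication, whereas the pool of a line was taken from the study's methods. Genes with at least 2 CPM in at least 2 of the 16 libraries were kept (9539 of 17905). Counts were summed per line, scaled by TMM and tested with edgeR 4.0.16 (quasi-likelihood F test, R 4.3.3), with Benjamini-Hochberg adjustment. DESeq2 1.42.0 and limma 3.58.1, other filters, scalings and left-out libraries were alternatives. On simulated counts, 16%, 78%, 88% and 94% of the genes changed by 1, 2, 3 and 4 on the log2 scale were recovered (50 genes each), and 7 of 9339 unchanged genes were called. The changed genes were drawn only from genes above a minimum count. More genes were changed than were called in the data, which makes the adjusted threshold easier to pass, so recovery in the data may be lower. Names came from RefSeq tables of a later assembly (12358 IDs matched) and the study's gene tables, so no coordinates are given. Named genes were the called genes with the largest differences, the largest difference of each gene group, genes above 1% of the counts and Actin1. Further group members, MYB59 and the unnamed genes seen without the mixed libraries were named after their values were seen. The lines, groups and tests were chosen with earlier results of these data known.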

Additional observations from a re-analysis of the deposited data

Results flagged for a closer look

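Among the named genes, 1 of the 4 lines of a pool stood apart from the other 3 in 6 of 98 groups checked with Dixon's ratio, the gap to the nearest line over the range of the 4 lines. Chance alone gives about 1 in 20. The cause was not tested in any of them. The pyruvate phosphate dikinase gene PPDK2 (GRMZM2G097457) had 56.0 CPM in L043 and 3.91 to 9.24 CPM in the other Flint lines (ratio 0.898). CNR7 (GRMZM2G119755) had 4.72 CPM in S058 and 0.14 to 0.84 CPM in the other Dent lines (ratio 0.847). The gene dxs1 (GRMZM2G137151), for the first enzyme of plastid isoprenoid synthesis, had 3.58 CPM in P040 and 2.27 to 2.49 CPM in the other Dent lines (ratio 0.832). The silencing gene rdr6 (GRMZM2G145201) had 5.19 CPM in S070 and 3.44 to 3.61 CPM in the other Dent lines (ratio 0.898). A pair of abundant gene models were highest in L012 among the Flint lines. GRMZM2G427444 had 49875 CPM against 20786 to 24121 CPM (ratio 0.885), and GRMZM2G427557 had 33471 CPM against 14939 to 17715 CPM (ratio 0.85).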

How the results depend on the processing

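The 12 called genes were 2 with Flint higher, 10 with Dent higher and 3 beyond a log2 difference of 2, and DESeq2's size factors or leaving out the abundant gene models gave the same counts. In the same order, the DESeq2 Wald test gave 152, 155 and 71 genes, and limma-voom on line sums 1, 6 and 1. Taking the 16 libraries as replications gave 296, 344 and 97, and with a replicate block in that fit 334, 396 and 100. The deviations of same-numbered replications correlated above 0.1 in 27 of 28 pairs of lines (0.061 to 0.388, median 0.231), a hint of a shared replicate effect. All of these correlations were positive. As the labels name no shared batch, the main tests did not take the numbers as pairs, and fits with the number as a block are given beside some of them. The line sums of the test of the pools hold both replications of each line, but in proportion to their depth, which was unequal (7747441 and 15360547 counts in L023). Where the replications differ, the level of a line thus depends on that proportion. With line as a random block, limma-voom gave 46, 38 and 19. No filter on low counts gave 1 and 6 genes, a minimum of 5 CPM in 4 libraries gave 1 and 8, and libraries thinned to the same total count, in which the abundant gene models still took unequal shares, gave 0 and 6. Leaving out the mixed libraries gave 20, 19 and 16 genes, and leaving out their lines 30, 30 and 39. Without replication 1 the counts were 5, 5 and 5, and without replication 2 they were 0, 3 and 1. Single libraries left out gave 0 to 16, 0 to 13 and 0 to 11 genes, and single lines left out 0 to 31, 0 to 26 and 0 to 30. The lowest counts over lines, 0 called genes, came without L023 (1077 at an unadjusted p below 0.05, smallest edgeR adjusted p = 0.0596), and the highest without P040.

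Genes separated by lines numbered 1239 with no filter, 293 with the stricter filter and 2199 without both lines, and 539 to 1594 when a replication, library or line was left out. Genes differing between the 8 lines numbered 5078 with no filter and 4722 with the replicate block. The PC1 difference was 34.3 over the 500 most variable genes (exact permutation p = 0.0571), and 50.1 to 62.7 with lines left out (exact p = 0.0286 without any one Dent line, 0.0571 without L017, L023 or L043 and 0.0857 without L012). The pool by heat level interaction gave 55 genes with DESeq2, 0 to 1 with libraries or lines left out, the 1 without L023. At 32°C, 26 genes were called without the 2 libraries that resembled each other's line. The cause was not tested for any of these changes. No called result changed sign, whereas differences that were not called did so in some settings, such as Actin1 (GRMZM2G126010, -0.25 to 0.11) and PPDK2 (GRMZM2G097457, -0.35 to 1.66). With 4 lines in each pool, 16% of the genes changed by 1 on the log2 scale were recovered in simulation, which may overstate recovery in the data. Differences of this size were thus mostly below detection.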

Other observations

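The 75 genes whose 8 Flint and 8 Dent libraries did not overlap included 10 with a name, of which 3 were called. These were chosen after their values were seen. Of the 75, 46 were separated by lines in the same direction at 38°C, 34 at both 32°C and 38°C, and 0 in the opposite direction at 38°C. Over all genes, 9.37% were separated by lines at 32°C and 9.46% at 38°C, and the 75 were chosen in the same lines. Apart from the genes described above, they included gsh2 (GRMZM2G155974), with 2.73 ± 0.279 CPM in Flint and 4.60 ± 0.963 CPM in Dent lines (log2 -0.75, edgeR adjusted p = 0.169). Glucose-6-phosphate isomerase (phi1, GRMZM2G065083), which links the hexose phosphates of glycolysis, had a log2 difference of -0.39 (edgeR adjusted p = 0.268). PPR-814b (GRMZM2G416498), of the pentatricopeptide repeat family that processes organelle RNA, had 4.28 ± 1.27 and 1.54 ± 0.597 CPM (log2 1.47, edgeR adjusted p = 0.164).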
